A study of Rattus norvegicus with 12 samples.

Results

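MHC II-low Lyz2 myeloid cells of the rat liver were defined as droplet barcodes that carried myeloid transcripts but few MHC class II or Kupffer cell transcripts. A barcode was a member when Lyz2, Il1b, Alox5ap and Anxa1 together gave at least 3 unique molecular identifiers (UMIs, counted transcript molecules). Lyz2 or Il1b had to be among them. Cd74, the invariant chain of MHC class II, had to stay below 10 UMIs, and the Kupffer cell genes Cd5l, Clec4f, Vsig4, C1qa, C1qb and C1qc below 0.3% of a barcode's UMIs. By this rule 171 of 25659 kept barcodes (0.666%) were members. The rule used measured values, so the levels of Lyz2, Il1b, Alox5ap, Anxa1, Cd74 and of all other genes of the members against other barcodes are given as descriptions without a test.

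The 6 libraries came from livers of healthy male rats of the inbred strains Dark Agouti (DA) and Lewis (LEW), dissociated with collagenase. 4 libraries were total liver homogenate (TLH), 2 of each strain, made with version 2 of the 10x Genomics 3′ chemistry. The other 2 were immune-enriched, 1 of each strain, made with version 3 after further washing and removal of red blood cells. The labels put the rats at 8 to 10 weeks of age, while the deposited names carry 10 weeks for the TLH DA, 13 weeks for the TLH LEW and 9 weeks for the immune-enriched libraries, and the study's own text gives an older age than either. Preparation and chemistry therefore cannot be told apart, and within TLH the named age goes with strain. TLH barcodes were kept from 2000 UMIs upward if no more than 40% of these were mitochondrial. For the immune-enriched libraries the limits were 1000 UMIs and 50%. This kept 2351 and 10167 barcodes in TLH DA-1 and DA-2, 5457 and 3844 in TLH LEW-1 and LEW-2, and 1163 and 2677 in immune-enriched DA and LEW.

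Myeloid cells with little MHC class II in the liver's blood space include neutrophils and monocytes. Neutrophils are short-lived granulocytes packed with the calcium-binding proteins S100a8 and S100a9 and with granule proteins, and they hold little RNA. Classical monocytes enter inflamed tissue, whereas non-classical monocytes patrol the vessel wall. In the rat the latter are recognised by a high level of CD43, the sialoglycoprotein encoded by Spn.

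Members were found in every library. They numbered 6 in TLH DA-1 (0.255% of kept barcodes, exact 95% binomial interval 0.0937 to 0.555), 8 in TLH DA-2 (0.0787%, 0.0340 to 0.155), 27 in TLH LEW-1 (0.495%, 0.326 to 0.719) and 13 in TLH LEW-2 (0.338%, 0.180 to 0.578). Immune-enriched DA held 57 members (4.90%, 3.73 to 6.30) and immune-enriched LEW held 60 (2.24%, 1.71 to 2.88). These intervals cover counting error only. Within TLH both LEW shares lay above both DA shares, and in the immune-enriched pair the DA share was the higher one. Leaving hepatocyte barcodes out of the denominator gave 1.48% and 0.802% in TLH DA, 4.78% and 2.42% in TLH LEW, and 5.51% and 4.92% in immune-enriched DA and LEW. On that scale the immune-enriched pair had overlapping intervals. A hepatocyte barcode had at least 5% of its UMIs from 6 hepatocyte genes, and 40 of the 54 TLH members passed that limit too (4 of 6, 8 of 8, 20 of 27 and 8 of 13). They stayed in both counts because hepatocyte barcodes also had to be below 3 panel UMIs.

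**Figure D1:**
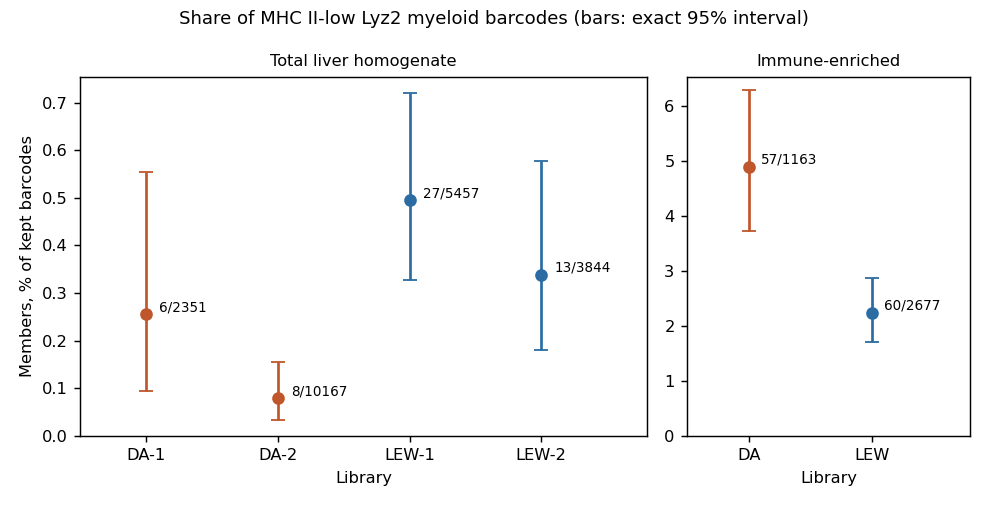
Share of kept barcodes (y axis, percent) that were members in each library (x axis), with exact 95% binomial intervals as bars and members over kept barcodes as text; the 2 panels have different y scales. The 2 TLH LEW libraries lie above the 2 TLH DA libraries, while immune-enriched DA lies above immune-enriched LEW.

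The mean LEW minus DA difference over both preparations was -1.21 percentage points, with an exact two-sided permutation p of 1. The 12 possible arrangements of strain within preparation could not give a p below 0.167. The order within TLH depended on the cell filter: with the filters of the study's methods (1500 UMIs for TLH DA-1 and both TLH LEW libraries) the shares were 0.362% and 0.112% in TLH DA and 0.338% and 0.471% in TLH LEW, and the strains overlapped. Those limits kept 12124 and 7857 TLH LEW barcodes. With them in TLH DA alone and 2000 UMIs kept for TLH LEW, 0.362% in TLH DA-1 still lay above 0.338% in TLH LEW-2.

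In the immune-enriched libraries the members carried far fewer UMIs than the barcodes that met the same rule except for Cd74, called MHC II-high here. Member medians were 3331 and 3233 UMIs in DA and LEW, against 10988 and 9322 in the 42 and 16 MHC II-high barcodes. In TLH member medians ran from 2291 to 2549 UMIs, against 2376, 3365, 3904 and 3008 in MHC II-high barcodes of TLH DA-1, DA-2, LEW-1 and LEW-2, so members were the shallower class in 3 of these 4 libraries. Since the Cd74 limit is an absolute number, a shallow barcode passed it more easily than a deep one. Few barcodes stood at this limit in the immune-enriched libraries: 3 and 5 members had 5 to 9 Cd74 UMIs, 35 and 41 had 0, and 0 and 1 barcodes outside had 10 to 19. In each TLH library 1 to 3 barcodes outside had 10 to 19. At the panel limit, 3 TLH DA-1 members, 1 TLH DA-2 member, 2 TLH LEW-1 members and 2 immune-enriched LEW members had 3 or 4 panel UMIs. Between 2 and 8 barcodes a library had exactly 2. No member had Kupffer genes over 0.2% of its UMIs. MHC II-high barcodes of the immune-enriched libraries also held conventional dendritic cell genes, at 1142 and 738 CPM against 44.4 and 29.5 in members. Clec10a was counted in 54.8% and 43.8% of them and Clec9a in 33.3% and 25%. This class may thus hold dendritic cells as well as monocytes, and the contrasts with it below are not with monocytes alone.

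Of the 5 genes that mark these cells, Lyz2 (lysozyme) gave the most UMIs in every library. Its summed level was 1997 and 2562 CPM (UMIs of the gene per 1000000 UMIs of all members of a library) in TLH DA-1 and DA-2, 9039 and 13576 in TLH LEW-1 and LEW-2, and 10702 and 12526 in immune-enriched DA and LEW. The 2 TLH DA libraries were thus low, and their median panel count per member was 4.5 and 7 UMIs against 19 to 39 in the other libraries. Alox5ap, which presents arachidonic acid to 5-lipoxygenase, was at 322, 41.3, 352, 330, 740 and 539 CPM in the same order. Il1b, the inflammatory cytokine, was at 0, 248, 73.2 and 0 CPM in TLH and at 439 and 164 CPM in immune-enriched DA and LEW. Il1b was counted in 33.3% and 26.7% of the immune-enriched members, and in 0% and 0.645% of their T and NK barcodes. It was also counted in 59.5% and 37.5% of the deeper MHC II-high barcodes. After each barcode was thinned to 1000 UMIs the shares were 26.3% and 16.7% in members and 9.52% and 0% in MHC II-high barcodes, with 42 and 16 barcodes in the latter class. Anxa1, an annexin of leukocytes, was at 360 and 257 CPM in immune-enriched members, below the 489 and 710 CPM of MHC II-high barcodes. Hopx, an atypical homeobox gene that the rule did not use, was at 0 and 41.3 CPM in TLH DA, 366 and 451 in TLH LEW, and 1017 and 1170 in immune-enriched DA and LEW. It was counted in 56.1% and 56.7% of immune-enriched members against 25.2% and 20.6% of T and NK barcodes, whose median depths were 4068 and 4233 UMIs. In the deeper MHC II-high barcodes it was counted in 64.3% and 93.8%, at the lower levels of 418 and 986 CPM. The Il1b and Hopx levels of members were uneven: both were far higher in members with S100a8 and S100a9, as given below.

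Low MHC class II was in part set by the rule, which holds Cd74 below 10 UMIs, so class II values are a description. Cd74 was at 252 and 261 CPM in immune-enriched members and at 22840 and 15514 CPM in MHC II-high barcodes. The 7 class II genes and regulators outside the rule summed to 29.6 and 131 CPM in immune-enriched members, against 53379 and 37891 in MHC II-high and 9888 and 1876 in Kupffer-rich barcodes (at least 1% of UMIs from the 6 Kupffer genes). Against MHC II-high barcodes, 5 of the 7 were lower in members in both immune-enriched libraries and 0 were higher. RT1-Da was at 19.7 and 75.8 CPM in members against 17983 and 12630. RT1-Db1 was at 0 and 25.3 CPM against 17328 and 11382. In TLH the label fitted less well. The 7 genes summed to 1932, 702, 146 and 961 CPM in members of TLH DA-1, DA-2, LEW-1 and LEW-2, and to 1341, 1231, 909 and 2545 CPM in Kupffer-rich barcodes. In TLH DA-1 the members thus lay above Kupffer-rich barcodes, 3 of the 6 had at least 3 of these UMIs and 5 of the 6 had Cd74, at 1481 CPM. For reference, over all 11690 genes with a UMI in either class, 29.2% were higher and 20.3% lower in members in both libraries.

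The genes with the largest mean fold in members over all other kept barcodes, among 1219 genes counted in at least 25% of members of each immune-enriched library, were Lyz2 (97.0-fold), S100a4 (60.5-fold), S100a6 (24.1-fold), Mal (17.9-fold), Plac8 (15.5-fold), Spn (14.7-fold), Glipr1 (14.2-fold), S100a11 (14.1-fold), Coro1a (12.5-fold) and Alox5ap (12.2-fold). These folds have 10 CPM added to both sides, and 20899 of the 25488 other barcodes were hepatocyte barcodes. Against MHC II-high barcodes, the class most like the members, 9 of the 10 genes were higher in members in both immune-enriched libraries and S100a11 was lower, at 889 and 829 against 1336 and 1552 CPM. Plac8 was close, at 4828 and 4901 against 3562 and 4498 CPM. Against all other kept barcodes, Mal was at 0 in TLH DA-1 members and higher in members in the other 5 libraries, and the other 9 genes were higher in all 6. S100a4 and S100a6 are calcium-binding proteins of motile cells, and Coro1a binds actin in leukocytes. S100a4 was at 644 and 661 CPM in TLH DA, 1875 and 1892 in TLH LEW, and 3441 and 3326 in the immune-enriched members. Spn was at 64.4 and 82.6 CPM in TLH DA, 293 and 270 in TLH LEW, and 706 and 699 in the immune-enriched members. For both genes the immune-enriched values were the highest and the TLH DA values the lowest. In TLH DA these were 10 and 16 UMIs of S100a4 but only 1 and 2 UMIs of Spn. How many of all genes have this order was not counted.

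Whether classical monocyte or neutrophil genes led was asked with 18 classical monocyte and 20 neutrophil genes. The classical list summed to 4573, 5372, 7852 and 8440 CPM in TLH DA-1, DA-2, LEW-1 and LEW-2, and to 8402 and 9570 CPM in immune-enriched DA and LEW. The neutrophil list summed to 644, 1860, 542, 210, 2458 and 1057 CPM in the same order. The classical sum was thus the higher one in every library, by 7.10, 2.89, 14.5, 40.1, 3.42 and 9.06 times (geometric mean 8.47, SD 1.40 on the log2 scale, n = 6). The neutrophil sums of TLH members rested on few genes. Of the 20 genes, 1, 6, 3 and 3 had a UMI in TLH DA-1, DA-2, LEW-1 and LEW-2. In immune-enriched DA and LEW 12 and 11 did. The TLH ratios, 40.1 among them, are therefore loose, though they enter the mean equally. The classical lead was not particular to the members. In immune-enriched DA and LEW the ratio was 72.8 and 82.5 in MHC II-high barcodes, 113 and 85.6 in Kupffer-rich barcodes, 28.6 and 41.5 in T and NK barcodes and 20.8 and 52.8 in hepatocyte barcodes. The classical sums of TLH DA members lay close to the 4208 and 4193 CPM of hepatocyte barcodes there, while the neutrophil sums of the immune-enriched members lay above the 226 CPM that no other class of these libraries exceeded.

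Much of both sums came from genes that other cells of these libraries also held. In the neutrophil sum G0s2 gave 1081 and 770 CPM in the immune-enriched libraries, and hepatocyte barcodes held 226 and 91.8. Plac8, expressed across leukocytes, gave 4828 and 4901 CPM of the immune-enriched classical sums, and T and NK barcodes held 1621 and 1454 CPM. Mgst1, a microsomal glutathione transferase, gave 815 and 1368 CPM and hepatocyte barcodes held 3482 and 3498. Fn1, fibronectin, gave 98.7 and 1048 CPM and hepatocyte barcodes held 1036 and 1212. Without list genes above 20 CPM in hepatocyte barcodes, and without Plac8, the classical sum was 0.345 times the neutrophil sum in TLH DA-2, 26.0 and 6 times in TLH LEW, and 1.67 and 6.87 times in the immune-enriched libraries. TLH DA-1 held 0 neutrophil UMIs on that trimmed list, and the TLH LEW libraries had UMIs of at most 3 of its neutrophil genes each. Against the full lists the ratio was thus higher in TLH LEW-1 and lower in the other 4 libraries. In TLH DA-2 all 29 neutrophil UMIs of the trimmed list were in 1 of the 8 members, and without that barcode the full-list ratio was 15.6 in place of 2.89.

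Among defining classical monocyte genes, Vcan (versican) was at 14.8 and 80.0 CPM in immune-enriched DA and LEW and F13a1 (coagulation factor XIII A) at 0 in all 6 libraries. Csf1r, the receptor for macrophage colony-stimulating factor, was at 982 and 914 CPM and Fcgr1a, a high-affinity IgG receptor, at 291 and 303 CPM. Csf1r was counted in 68.4% and 80.0% of immune-enriched members and in 0% and 1.29% of T and NK barcodes. Against MHC II-high barcodes, 10 of 16 detected classical genes were higher in members in both immune-enriched libraries, where 29.2% of all genes were. Ly86, Plbd1, Ms4a6a and Ccr1 were lower.

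Among the neutrophil and monocyte lists, the non-classical monocyte list had the largest share of genes that were higher in members than in MHC II-high barcodes. Of 13 detected genes, 12 were higher in members in both immune-enriched libraries and 0 lower, where 29.2% of all genes were higher. The neutrophil list followed with 10 of 13 higher and 0 lower, ahead of the classical list. Spn, at 706 and 699 CPM in immune-enriched members, was at 57.5 and 89.7 CPM in MHC II-high barcodes. Fcgr3a, the low-affinity IgG receptor CD16, was at 1244 and 640 CPM in immune-enriched members against 50.9 and 20.7 CPM. Eno3, a muscle-type enolase, was at 494 and 269 CPM against 24.3 and 20.7. Pou2f2, a POU-domain transcription factor, was at 439 and 467 CPM against 64.2 and 55.2. Gngt2, a G protein gamma subunit, was at 1382 and 859 CPM against 420 and 421.

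Single genes of this list were shared with other cells. Spn was counted in 59.6% and 76.7% of immune-enriched members, but also in 42.9% and 51.0% of T and NK barcodes. After thinning each barcode to 1000 UMIs it was counted in 38.6% and 46.7% of members and 4.76% and 12.5% of MHC II-high barcodes. Kupffer-rich barcodes held Csf1r at 1471 and 1537 CPM and Gngt2 at 1295 and 1024 CPM, near or above the members. Csf1r is on the classical list. Fcgr3a, lower there at 513 and 397 CPM, was counted in 79.4% and 92.5% of these deeper barcodes against 57.9% and 40% of members. They held Spn at 26.5 and 19.8 CPM and Eno3 at 2.21 and 1.44 CPM. Cx3cr1, the fractalkine receptor, was low at 83.9 and 63.2 CPM, and Ace was at 0. In TLH members the list summed to 580 to 1641 CPM against 5119 and 3596 CPM in the immune-enriched libraries. Kupffer-rich barcodes of TLH held a similar 929 to 1500 CPM, so in TLH this level was not particular to the members. Over the full lists the non-classical sum of members was below the classical sum in every library, at 0.127, 0.177, 0.209, 0.157, 0.609 and 0.376 times. In Kupffer-rich barcodes it was 0.265, 0.220, 0.305 and 0.296 times in TLH, above the members. In immune-enriched DA and LEW it was 0.514 and 0.363 times there, below them. In members the order turned, to 1.17 to 2.39 times, when hepatocyte-expressed genes and Plac8 were left out, a selection made after values had been seen.

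**Figure D2:**
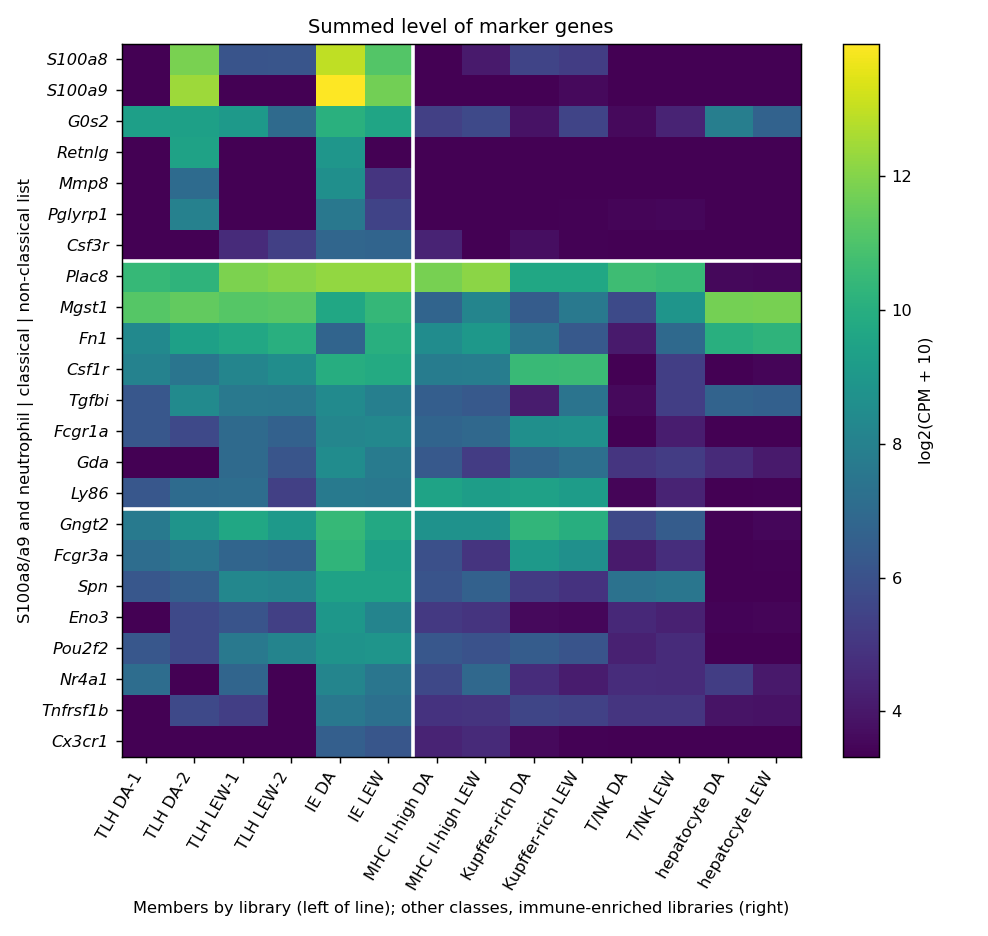
Summed level of named genes as log2(CPM + 10) (colour) in members of the 6 libraries (left of the line; IE, immune-enriched) and in 4 other classes of the immune-enriched libraries (right), with S100a8, S100a9 and neutrophil genes at the top, classical monocyte genes in the middle and non-classical genes at the bottom. S100a8 and S100a9 are bright in TLH DA-2 and both immune-enriched libraries and darker in the other classes; Mgst1 and Fn1 are also bright in hepatocyte barcodes.

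Neutrophil genes were detected in part. G0s2, Csf3r (the receptor for granulocyte colony-stimulating factor) and Trem1 were found at 1081, 104 and 49.4 CPM in immune-enriched DA and at 770, 96.8 and 67.4 CPM in immune-enriched LEW. Granule and secreted products differed between these libraries: Retnlg was at 479 and 0 CPM, the collagenase Mmp8 at 385 and 21.1 CPM, and the peptidoglycan-binding Pglyrp1 at 183 and 33.7 CPM. Cxcr1, Ltf, Lcn2, Cd177, Mpo, Prtn3 and Ctsg were at 0 in members of all 6 libraries. TLH DA-2 also held Retnlg (702 CPM), Pglyrp1 (248 CPM) and Mmp8 (124 CPM), all in the same 1 of its 8 members, and all 3 were at 0 in the other TLH libraries.

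S100a8 and S100a9 were not spread over the members but concentrated in a few. They summed to 8051 and 16172 CPM in immune-enriched DA, 2219 and 3343 in immune-enriched LEW, and 3636 and 5496 in TLH DA-2. In TLH DA-1 both were at 0, and in TLH LEW-1 and LEW-2 S100a8 was at 58.6 and 60.1 CPM and S100a9 at 0. At least 10 UMIs of the pair were carried by 16 of 57 members in immune-enriched DA (28.1%, exact 95% interval 17.0 to 41.5), by 10 of 60 in immune-enriched LEW (16.7%, 8.29 to 28.5), by 1 of 8 in TLH DA-2 and by 0 in the other TLH libraries. In the immune-enriched libraries 39 and 46 members had 0 UMIs of the pair, and 2 and 4 had 1 to 9. The intervals of the 2 immune-enriched libraries overlapped. T and NK barcodes had 0 of 238 and 0 of 155 with a S100a8 UMI, which allows shares of up to 1.26% and 1.94% of barcodes with a UMI. MHC II-high barcodes had 0 of 42 and 1 of 16. The deeper Kupffer-rich barcodes had 9 of 97 (9.28%) and 32 of 186 (17.2%), at 35.3 and 28.1 CPM. After thinning to 1000 UMIs these shares were 2.06% and 1.08%, against 29.8% and 20.0% in members. Counting the pair with the neutrophil list turned the classical lead round in immune-enriched DA (0.315 times) and TLH DA-2 (0.489 times) and reduced it to 1.45 times in immune-enriched LEW. The TLH DA-2 value rests on 1 barcode, which held all 221 UMIs of the pair.

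The other genes of these barcodes went with that split, although the rule did not use S100a8 or S100a9. Here 6 neutrophil genes (Retnlg, Mmp8, Csf3r, Cxcr2, Pglyrp1 and Camp) and 6 monocyte genes (Csf1r, Spn, Fcgr3a, Eno3, Gngt2 and Pou2f2) were counted per member. They were taken from the lists after values had been seen, so the counts are a description. Of the monocyte genes, Csf1r is on the classical list and the others are on the non-classical list. Csf1r and Gngt2 were also high in Kupffer-rich barcodes. In immune-enriched DA, 15 of the 16 members with at least 10 S100a8 and S100a9 UMIs had at least 2 UMIs of the neutrophil genes and 0 of the monocyte genes. In immune-enriched LEW, 4 of 10 did. Of the members with 0 UMIs of the pair, 38 of 39 in DA and 45 of 46 in LEW had at least 2 UMIs of the monocyte genes. Over all members, the monocyte genes reached 2 UMIs in 40 of 57 and 49 of 60 immune-enriched members, and in 3 of 6, 5 of 8, 21 of 27 and 12 of 13 TLH members.

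**Figure D3:**
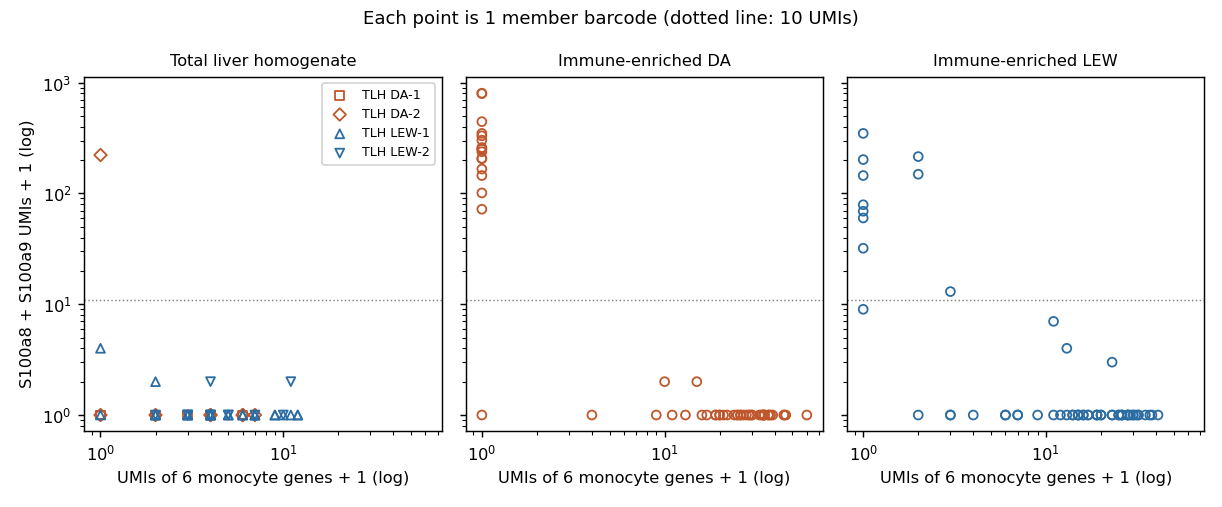
UMIs of S100a8 and S100a9 (y axis, plus 1, log scale) against UMIs of 6 monocyte genes (x axis, plus 1, log scale), 1 point a member barcode, in TLH, immune-enriched DA and immune-enriched LEW. The 16 immune-enriched DA members above the dotted line of 10 UMIs all sit at 0 monocyte UMIs, and 3 of the 10 in immune-enriched LEW sit off that edge.

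The S100a8 and S100a9 members were small. Their median was 1781 UMIs and 582 genes in immune-enriched DA and 1389 UMIs and 644.5 genes in immune-enriched LEW. Members with 0 UMIs of the pair had medians of 4041 UMIs and 1360 genes, and of 3370 UMIs and 1416 genes. The former held S100a8 and S100a9 at 57105 and 114735 CPM in DA, and at 25792 and 39540 CPM in LEW. In DA they held Csf1r, Spn, Fcgr3a, Eno3 and Gngt2 at 0, where the members without the pair held 1162, 866, 1514, 587 and 1653 CPM. In LEW, Spn, Fcgr3a, Eno3 and Gngt2 were at 0 and Csf1r was at 201 CPM, found in 3 of the 10 members, against 1003 CPM.

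Several genes that mark the cells differed along the same split. Il1b, Anxa1, Lyz2 and Alox5ap are panel genes of the rule, so their values are a description and give the split no support. Hopx was not used by the rule. Il1b was at 2908 CPM in the S100a8 and S100a9 members of immune-enriched DA and at 36.3 CPM in those without the pair, and at 1355 against 50.9 CPM in LEW. Anxa1 was at 2382 against 24.2 CPM in DA and at 1656 against 122 CPM in LEW. Hopx was at 4695 against 230 CPM in DA and at 4115 against 540 CPM in LEW. Lyz2 and Alox5ap were higher with the pair too, with Lyz2 at 23928 against 7719 CPM in DA and at 24035 against 8810 CPM in LEW. Members without the pair lay below MHC II-high barcodes for Il1b (223 and 103 CPM there), Anxa1 (489 and 710) and Hopx (418 and 986). For Lyz2, at 4653 and 9892 CPM there, they lay above in DA and below in LEW. Il1b was counted in 15 of 16 members with the pair and 4 of 39 without it in DA, and in 9 of 10 and 6 of 46 in LEW. Lyz2 was counted in 16 of 16 and 10 of 10 immune-enriched members with the pair and in 38 of 39 and 45 of 46 without it. In LEW 1 member with the pair was unlike the other 9, with 6517 UMIs against 1095 to 2553 and with 12 UMIs of the pair, close to the limit. It gave 226 of the group's 479 Lyz2 UMIs. Without it Lyz2 was at 18864 CPM, Il1b at 2013, Anxa1 at 2237 and Hopx at 3579 CPM in the LEW group, all still above the members without the pair.

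The 4 immune-enriched LEW members with 1 to 9 UMIs of the pair were not 1 group. One had 1155 UMIs and 8 UMIs of the pair, with Fn1, Vcan and Csf1r at 0, like the small members above. The other 3 had 6622 to 6792 UMIs and held Lyz2 at 35332 CPM, Hopx at 4286, Fn1 at 5382, Vcan at 349 and Csf1r at 797 CPM. Over the whole library 5 members had at least 100 Lyz2 UMIs (154 to 361), at 6517 to 7453 UMIs in all, and they carried 0 to 12 UMIs of the pair, so the split by S100a8 and S100a9 placed them in all 3 groups. In TLH LEW-1 the 2 members with 1 to 9 UMIs of the pair held Vcan at 691 CPM, found in both. These 2 members had only 2001 and 2341 UMIs, so that level rests on a few Vcan UMIs.

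**Figure D4:**
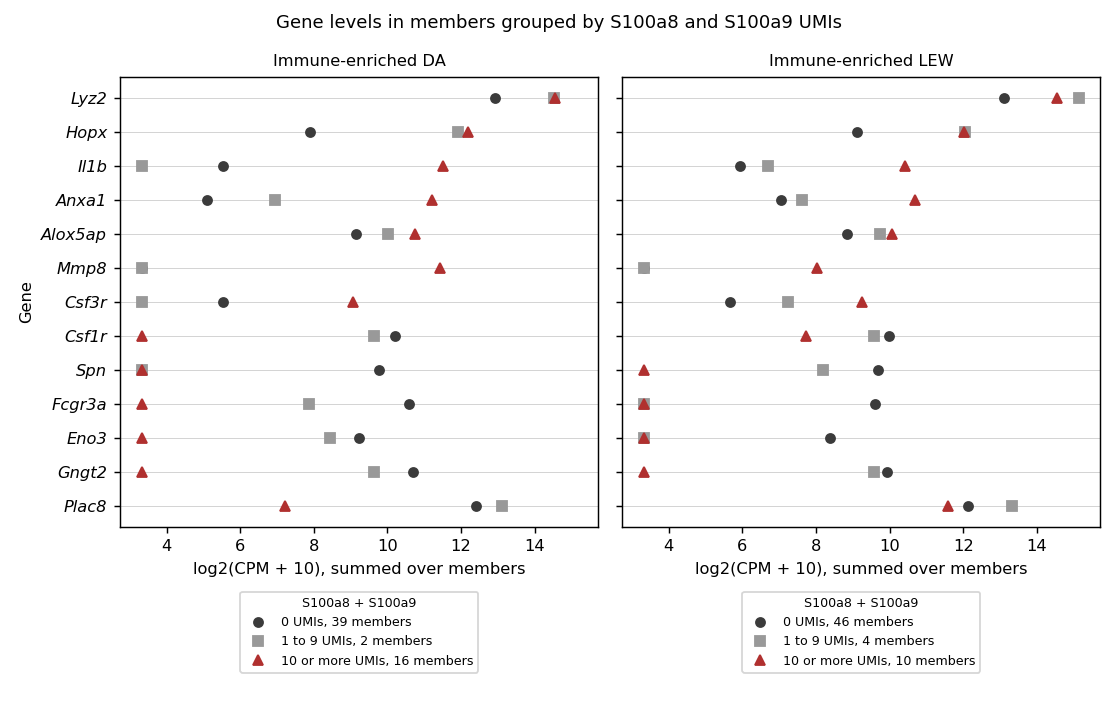
Summed level as log2(CPM + 10) (x axis) of 13 genes (y axis) in immune-enriched DA and LEW members grouped by their S100a8 and S100a9 UMIs (symbols). Members with 10 or more UMIs lie to the right of those with 0 for Lyz2, Hopx, Il1b, Anxa1, Alox5ap, Mmp8 and Csf3r and to the left of them for Csf1r, Spn, Fcgr3a, Eno3 and Gngt2 in both libraries; in LEW those with 1 to 9 UMIs lie further right for Lyz2.

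Clustering the members of each immune-enriched library gave 5 clusters in each. A cluster was named only where at least 3 markers of 1 list stood among its 10 leading genes, and its genes defined it, so they are no test. In DA, 1 cluster of 16 members qualified and was neutrophil-like, with Retnlg, Ifit1bl, S100a8, S100a9, Mcemp1, Mmp8, Pglyrp1, Slpi and Anxa1 among its leading genes. In that cluster Csf3r was counted in 75.0% of members, and Spn and Fcgr3a in 0%. The other 4 DA clusters, of 16, 12, 10 and 3 members, stayed unnamed. Spn was counted in 93.8%, 75.0%, 90.0% and 33.3% of their members and Fcgr3a in 93.8%, 50%, 100% and 66.7%. In LEW no cluster met the rule. The largest, of 21 members, was led by S100a9, the ficolin Fcnb, S100a8, Ifi30 and Hk2. It held Hopx in 90.5% of members, Fn1 in 42.9%, Csf1r in 61.9% and Fcgr3a in 4.76%. The other 4 LEW clusters held Spn in 80.0% to 100% of members. The cluster of 10 was led by Mrc1, Plpp3 and Epas1, genes of scavenger and endothelial cells, each in 30% of its members.

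Other myeloid functions were read from lists. The phagocyte oxidase genes, whose products make superoxide, summed to 3485 and 3335 CPM in immune-enriched members 2458 and 2849 in MHC II-high and 4410 and 3719 in Kupffer-rich barcodes. In all 4 TLH libraries the members lay below MHC II-high barcodes, at 580, 744, 1128 and 1231 against 804, 798, 1357 and 1241 CPM. Against Kupffer-rich barcodes 3 of the 5 genes were lower in members in both immune-enriched libraries and 1 was higher, where 34.6% of all 13989 genes with a UMI in either class were lower and 19.6% higher. Against MHC II-high barcodes 2 of the 5 genes were higher in both libraries and Ncf1 was lower, where 29.2% of all genes were higher and 20.3% lower. Cybb, the catalytic subunit, was at 943 and 1019 CPM against 405 and 566 in MHC II-high barcodes. Adhesion genes summed to 1748 and 1916 CPM against 405 and 621. In both libraries 5 of 7 were higher and Icam1 was lower, beside the same 29.2% and 20.3% of all genes. Itgb2, the shared beta chain of the leukocyte integrins, was at 1032 and 703 CPM against 153 and 166. Interferon-response genes summed to 3046 and 1625 CPM against 500 and 793. In both libraries 8 of 10 were higher and Mx2 was lower, beside 29.2% and 20.3% of all genes. Ifit3 was at 977 and 417 CPM against 22.1 and 27.6. Kupffer-rich barcodes held more of the interferon-response genes, at 7122 and 6261 CPM. Against them 2 of 10 were higher and 4 lower in members, near the shares over all genes for that class. T and NK barcodes held 2246 and 2394 CPM, below the members in DA and above them in LEW.

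Cytokine and chemokine genes were mixed. They summed to 1797 and 1217 CPM in immune-enriched members against 1199 and 2304 in MHC II-high barcodes. Of 10 detected genes 4 were higher in members in both libraries and 4 lower, where 29.2% of all genes were higher and 20.3% lower. Tnf, Il6, Il10 and Il1a were at 0 in members of all 6 libraries. Ccl2, a monocyte-attracting chemokine, was at 0 in members and at 204 and 428 CPM in MHC II-high barcodes. Ccl6 was at 992 and 564 CPM in immune-enriched members against 440 and 476. The inhibitor Il1rn was at 168 and 147 CPM against 8.85 and 41.4. The leukotriene and prostanoid enzymes were near 0 although Alox5ap was not: Alox5, its partner enzyme, was at 0 in members of all 6 libraries. Low Alox5 was not particular to the members. In the immune-enriched libraries MHC II-high barcodes held it at 0 and 13.8 CPM, beside Alox5ap at 482 and 490. Kupffer-rich barcodes held Alox5 at 4.42 and 3.97 CPM. The whole list summed to 49.4 and 46.3 CPM in members, 166 and 103 in MHC II-high and 1155 and 1242 in Kupffer-rich barcodes.

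RNA of other cells was present in the members. Hepatocyte RNA was highest in TLH. The 6 hepatocyte genes used to mark hepatocyte barcodes took a median of 5.47% to 7.92% of the UMIs of a TLH member, 0.117% in immune-enriched DA and 1.39% in immune-enriched LEW. The hepatocyte list of 10 genes summed to 71667 to 108430 CPM in TLH members, 2695 in immune-enriched DA and 24626 in immune-enriched LEW. MHC II-high barcodes of the last 2 libraries held 1283 and 8057 CPM, and all 10 genes were higher in members in both. Of the endothelial list 5 of 10 genes were higher in members in both and 0 lower, where 29.2% of all genes were higher and 20.3% lower. The erythroid list was highest in immune-enriched DA, at 15264 CPM, where 1 member held 3078 of the 3092 UMIs, and it did not exceed 84.2 CPM elsewhere. The mesenchymal list reached 1264 CPM in immune-enriched DA (255 of 256 UMIs in 1 member) and 1116 CPM in TLH DA-2, and the endothelial list 1406 CPM in immune-enriched LEW (286 of 334 UMIs in 1 member). At least 3 UMIs of the endothelial list were found in 7 members, of the mesenchymal list in 5 and of the erythroid list in 2. At least 2 UMIs of the T and NK list were found in 1 and 3 immune-enriched members. Dendritic cell, basophil and platelet lists summed to at most 320 CPM in any library. The part of this RNA in the levels above was not tested.

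Strain was compared in the members with edgeR's quasi-likelihood test on summed counts, with preparation in the model. Only 4 libraries held at least 10 members, so DA was represented by 1 immune-enriched library, the strain difference rested on the immune-enriched pair, and 1 residual degree of freedom came from the TLH LEW libraries. Of 2732 genes 0 passed an adjusted p of 0.05 (0% called), 296 had an unadjusted p under 0.05, and the smallest adjusted p was 0.238. DESeq2 called 49 of 1249 genes. With all 6 libraries edgeR called 0 of 701 genes (0%), 18 had an unadjusted p under 0.05, and DESeq2 called 0. Other settings of the 4-library fit gave 0 to 217 calls, so this count was not stable.

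In the 4-library fit S100a8 differed by -1.96 on the log2 scale (LEW minus DA) and S100a9 by -2.37. Hopx differed by 0.10, Spn by -0.12 and Lyz2 by 0.13. None of these passed the threshold. With 1 DA library the fit holds no spread between DA animals, so only the differences are given. Its residual degree of freedom came from TLH LEW-1 and LEW-2, where S100a8 had 4 and 2 UMIs and S100a9 had 0. With all 6 libraries the values moved: S100a8 differed by -3.68 (SE 1.27), S100a9 by -5.14 (SE 1.82), Hopx by 1.32 (SE 0.78), Lyz2 by 1.51 (SE 0.62) and Spn, with its sign turned, by 0.58 (SE 0.52), each at an edgeR adjusted p of 0.993. The values near 0 for Hopx, Spn and Lyz2 thus hold for the immune-enriched pair. All TLH DA UMIs of S100a8 and S100a9 were in 1 TLH DA-2 member. The calls for the pair depended on the setting: S100a8 was called in 6 and S100a9 in 7 of the 10 alternatives of this fit, as were the neutrophil genes Retnlg in 7 and Mmp8 in 6. Among the 10 alternatives, 1 left out the members with 10 or more S100a8 and S100a9 UMIs, so the missing call of the pair there was set beforehand. Of the neutrophil genes tested, 5 of 5 had lower values in LEW. Of the hepatocyte list 11 of 11 tested features (of 10 gene symbols) had higher values (median 3.47 on the log2 scale). Over all genes 1506 were higher and 1226 lower. The share of hepatocyte RNA thus moved with strain in the immune-enriched pair, and its part in the strain values was not tested.

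The genes that the study linked to strain in liver myeloid cells, mainly a Marco-positive cluster, were chosen on the TLH libraries, so their TLH values are no independent evidence. The study also scored the top genes in its nuclei and immune-enriched libraries and reported strain differences in both. The immune-enriched values here are thus no new check. Itgal, the alpha chain of the integrin LFA-1, was at 0 and 0 CPM in TLH DA members, 176 and 120 in TLH LEW, 79.0 in immune-enriched DA and 644 in immune-enriched LEW. In the immune-enriched pair its level was higher in LEW, and the 4-library fit, with 1 DA library, gave 2.91 on the log2 scale. In TLH the LEW values were 12 and 4 UMIs. The 6 and 8 TLH DA members gave 0, which allows up to 3 counts, so the order within TLH is not settled. The same order stood in the T and NK barcodes of the immune-enriched libraries, at 23.4 and 143 CPM, and in MHC II-high barcodes, at 15.5 and 172 CPM. RT1-A1, an MHC class I gene whose reads may be split among near-identical copies and alleles, was at 129 and 331 CPM in TLH DA, 791 and 481 in TLH LEW, and 632 and 1124 in immune-enriched DA and LEW. Lilrb3l was at 0 and 82.6 CPM in TLH DA, 132 and 150 in TLH LEW, and 79.0 and 223 in immune-enriched DA and LEW. Ccl3 ran the other way in the immune-enriched pair, at 390 and 88.4 CPM. Timp2 was at 168 and 135 CPM there, RT1-T24-3 at 237 and 404, and Il18 at 0 in both. The genes linked to DA were low in members: Ly6al was at 0 in 5 libraries, and Cd163, Hmox1 and Siglec5 did not exceed 129 CPM in any. In Kupffer-rich barcodes of immune-enriched DA and LEW, Cd163 was at 687 and 697 CPM and Hmox1 at 1792 and 915. Il18 was at 289 and 285 CPM there. The member rule keeps such barcodes out, so these low levels were in part set by it and are no result on the study's strain genes.

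Whether the strain difference was the same in members as in MHC II-high barcodes was asked with a strain-by-class term and the library as a block. DA was 1 immune-enriched library and 2 of the 3 LEW libraries were TLH, so a class difference between preparations enters this term and cannot be told apart from strain. Of 2816 genes 18 passed (0.639% called), 12 with the higher difference in members (0.426%) and 6 with the lower one (0.213%). With 1 DA library the p-values rest on the spread among the LEW libraries. In immune-enriched LEW Fn1 was uneven: 3 members above 6000 UMIs held it at 5382 CPM and another, of 6517 UMIs, at 6138. All members of that library together held it at 1048 CPM. Hepatocyte barcodes held Fn1 at 1036 and 1212 CPM, and no setting left hepatocyte RNA out. In the fit Fn1 differed by 3.03 on the log2 scale and Ccl3 by -4.54. In the immune-enriched pair alone, which is part of that fit and gives no test, the same differences were 2.89 and -2.78, and of the 12 called genes with UMIs in all 4 sums of the pair 8 had the smaller difference there. The class II genes RT1-Da and RT1-Db1 were among the 18, but the Cd74 limit that separates the classes bears on them, so no test of theirs is given. Hba-a2, a haemoglobin gene, and the scavenger and endothelial genes Mrc1, Lyve1 and Kdr were among the 18, and in immune-enriched LEW the last 3 were at 152, 240 and 257 CPM. With the members carrying endothelial, mesenchymal or erythroid UMIs left out, Fn1 and these class II genes alone of the 18 stayed among the calls. Ccl3, Hba-a2, Mrc1, Lyve1 and Kdr did not stay. With all 6 libraries 0 of 1290 genes passed, and DESeq2 called 1 in the 4 libraries. With Kupffer-rich barcodes in place of MHC II-high ones, 60 of 7703 genes passed (0.779% called), 8 with the higher difference in members (0.104%) and 52 with the lower one (0.675%).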

How the data were processed

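The authors processed the reads with Cell Ranger (version 3.1.0 in the submitters' processing notes) against a custom rat reference, and deposited 1 table of whole UMI counts per library, with no scaling. The counts were used as they stood, with gene names taken from a features file of the nuclei libraries, which has as many rows. The members, gene lists and other classes were chosen with earlier results of these data known. Libraries held 48255870 to 92484173 UMIs over all deposited barcodes. Doublets were not removed, since the study's methods scored but kept them and no caller was run here. The barcode sequences of these libraries were not analysed here, so barcodes shared between libraries were not counted.

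Counts were summed per library over the members and over 4 other classes and given as CPM, not scaled by gene length since only 3′ ends were counted. MHC II-high barcodes met the member rule but had 10 or more Cd74 UMIs. Kupffer-rich barcodes had at least 1% of UMIs from the Kupffer genes, T and NK barcodes at least 3 UMIs of lymphoid genes, and hepatocyte barcodes at least 5% of UMIs from 6 hepatocyte genes with no Ptprc, fewer than 3 panel and 10 Cd74 UMIs and few Kupffer UMIs. Shares have exact Clopper-Pearson 95% intervals, and a count of 0 allows up to 3 counts. Members of a library are not replicates. The study describes the TLH libraries as livers of separate rats, 2 of each strain, and each strain has 1 immune-enriched library. The filters in the study's methods keep 6623 and 7112 TLH DA barcodes, the cell numbers it gives, but 12124 and 7857 TLH LEW barcodes, where its numbers equal the 5457 and 3844 kept here at 2000 UMIs.

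Strain was tested with edgeR 4.0.16 (quasi-likelihood F test, TMM scaling, filterByExpr, preparation as covariate, Benjamini-Hochberg adjustment) and DESeq2 1.42.0 as an alternative, in R 4.3.3. The design had assumed more libraries with at least 10 members, and 2 TLH DA libraries fell short. On simulated counts for the 4-library strain fit over 2732 genes, 80 of 100 genes changed by 2 on the log2 scale and 98 of 100 changed by 3 were recovered, with 24 false calls. With all 6 libraries over 701 genes the numbers were 73 of 100, 94 of 100 and 8. Each simulation took the dispersion of its own fit, 0.0165 for the 4 libraries and 0.164 for all 6, and no preparation effect. The 4-library dispersion rests on 1 residual degree of freedom, so these counts do not give the power of the strain test. Members of each immune-enriched library were clustered with scanpy 1.11.5 (1000 variable genes, 15 components, 10 neighbours, Leiden resolution 1).

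Named genes were the genes of the rule and Hopx, up to 10 genes per neutrophil and monocyte list that were counted in at least 10% of members of an immune-enriched library, the 10 genes with the largest fold, genes called by strain, the study's strain genes, and 2 to 4 further genes per list. Genes outside this rule were chosen after their values were seen: list genes at 0, the 12 genes counted per member, genes of the clusters, and genes of the strain-by-class fit. Alternatives changed the rule's limits, the cell filters, the scaling, the low-count filter and the libraries used. 1 gene that the rule names is not reported here.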

Additional observations from a re-analysis of the deposited data

Results flagged for a closer look

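The share of members moved in opposite directions with strain in the 2 preparations. The mean share was 0.25 percentage points higher in LEW than in DA over the 4 TLH libraries, where both LEW libraries lay above both DA libraries. It differed by -2.66 percentage points (LEW minus DA) in the immune-enriched pair, which is 1 library of each strain. The difference between the preparations was not tested. Among barcodes that are not hepatocyte barcodes LEW was higher in TLH and close to DA in the immune-enriched pair, at 4.92% and 5.51%.

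TLH barcodes below the 2000-UMI minimum also carried S100a8 and S100a9. Of those with 1000 to below 2000 UMIs, 10 in TLH DA-1, 11 in TLH LEW-1 and 6 in TLH LEW-2 had at least 10 UMIs of the pair, and 0 in TLH DA-2. At 2000 UMIs or more there were 1, 0 and 0 in the same libraries and 1 in TLH DA-2. In the immune-enriched libraries, where the minimum was 1000 UMIs, 12 and 8 such barcodes lay between 1000 and 2000 UMIs and 5 and 3 above. The shares of S100a8 and S100a9 members in TLH and in the immune-enriched libraries were thus taken at different depth limits.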

How the results depend on the processing

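The number of members ran from 144 to 227 under 7 other settings against 171. The geometric mean over libraries of the classical to neutrophil ratio kept its direction under all 17 alternatives, from 3.61 to 16.8 in 16 of them and 2.94 with S100a8 and S100a9 counted as neutrophil genes. It was 6.20 to 10.5 with each library left out. The 3.61 came from the lists without hepatocyte-expressed genes and Plac8, and it lacks TLH DA-1, which held no neutrophil UMIs there. The classical sum was the higher one in all other classes too, so this direction is not particular to the members. Single libraries did turn round: immune-enriched DA (0.315) and TLH DA-2 (0.489) with the S100 pair counted, and TLH DA-2 (0.345) without hepatocyte-expressed genes and Plac8. The member share difference of -1.21 percentage points reversed to 0.25 without immune-enriched DA or without immune-enriched LEW, to 0.931 among barcodes that are not hepatocyte barcodes, and to 0.20 as a difference of log2 percentages. It ran from -1.25 to 0.25 with each library left out. Settings on other cells' RNA, on S100a8 and S100a9, on hepatocyte-expressed genes and on all 6 libraries were chosen after seeing the data.

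The 0 strain calls of the 4 libraries became 152 with a panel of at least 5 UMIs, 217 with Cd74 under 0.2% of UMIs, 166 with Kupffer genes under 0.1%, 214 with RLE scaling, 49 with DESeq2, 63 without a low-count filter and 185 without members that carried endothelial, mesenchymal or erythroid UMIs. They stayed 0 with the study's cell filters, without members that carried lymphoid UMIs and without the S100a8 and S100a9 members. Leaving 1 library out, TLH alone and the replicate block could not be fitted in the 4 libraries. With all 6 libraries the count was 17 for TLH alone and 0 to 16 with each library left out, at 16 without immune-enriched DA and 9 without immune-enriched LEW. The replicate block with all 6 libraries gave 0 calls. The TLH libraries share only a replicate number, and deviations of same-numbered libraries correlated at r = -0.0475 over 965 genes.

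The 18 strain-by-class calls became 60 against Kupffer-rich barcodes, 1 with DESeq2, 6 without a low-count filter, 6 without members that carried other cells' RNA, 0 with all 6 libraries and 19 without the block. They were 8 to 76 with each library left out, at 8 without TLH LEW-1 and 76 without immune-enriched LEW, and could not be fitted without immune-enriched DA. The cause of these changes was not tested. Between 6 and 60 members a library limit every share and level given.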
